A study of Drosophila melanogaster with 2 samples.

Results

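A set of 9 Drosophila melanogaster genes that encode sequence-specific insulator and promoter factors, CTCF, su(Hw), pita, ZIPIC, dwg, M1BP, Clamp, Trl and Dref, were examined for binding of a tagged CG9215 protein. They were chosen by name from 18277 annotated genes, and each was matched by its symbol. The study mapped CG9215-eGFP by chromatin immunoprecipitation and sequencing (ChIP-seq) in whole embryos collected at 0 to 24 h. There is 1 group of 2 biological replicates. Both carry the CG9215-eGFP insertion (strain CG9215-GFP) and both were precipitated with an anti-GFP antibody. An untagged or input control was not analysed here, and the embryos were whole and of mixed ages, so that binding in 1 tissue or at 1 stage cannot be told apart from binding in all.

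Insulator proteins bind DNA and limit contacts between neighbouring chromatin regions. CTCF, su(Hw), pita, ZIPIC and dwg (also known as Zw5) are zinc finger proteins of this class, and several of them work with the cofactor Cp190. M1BP, Clamp, Trl (GAGA factor) and Dref are better known at promoters: M1BP binds the core promoter element Motif 1, Clamp and Trl bind GA repeats, and Dref binds the DNA replication-related element through a BED-type zinc finger.

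A gene was counted as bound when a peak summit lay in the gene or within 2 kb of it. Peaks had been compared between data sets by the irreproducible discovery rate (IDR), which estimates how many peaks at or above a given rank would fail to recur. A ranked list holds every peak compared. A thresholded list holds those that passed an IDR of 0.01, and the conservative list is the thresholded comparison of both replicates. The signal of a peak is a value of the authors' peak caller with no stated scale, and it was used to order peaks within a list.

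Of the 9 genes, 4 had a conservative peak: Trl, pita, M1BP and Dref. Among 13968 protein-coding genes the share was 30.6%, and by window length it was 21.4% under 6 kb, 33.1% from 6 to 10 kb and 41.4% from 10 to 20 kb. In those classes, 1 of 2, 2 of 6 and 1 of 1 of the 9 genes had a peak. Each of these 4 also had such a summit at a promoter, at most 500 bp from one of its own starts, against 17.3% of protein-coding genes. The other series-level thresholded list (32.6% of protein-coding genes), that of replicate 1 (28.9%) and that of replicate 2 (25.1%) each held 5 of the 9, with su(Hw) added. With 9 genes, these counts do not set the group apart from other genes, and no test was made. The 4 genes with a conservative peak differed widely in signal, from 164 at Dref to 2220 at Trl, and the remaining 5 ran from no ranked peak at all at Clamp to a peak at su(Hw) that passed in each replicate.

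**Figure D1:**
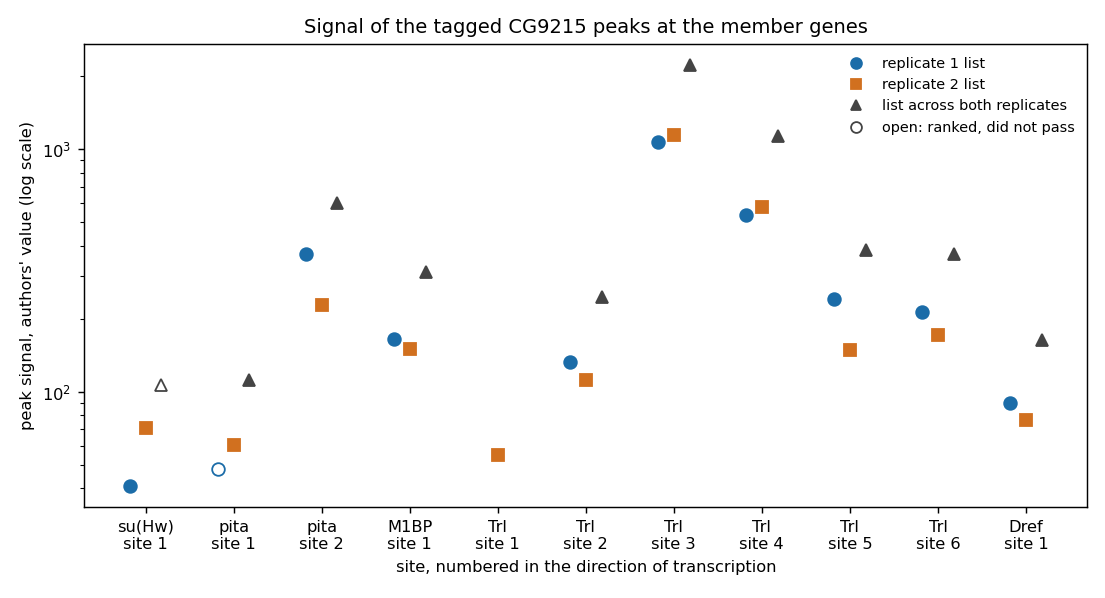
Peak signal (log scale, units of the authors' peak caller) of the 11 sites at the 9 genes that passed in any thresholded list. Points give the value in the ranked list of each replicate and in the conservative ranked list. Open points were ranked but did not pass, and Trl site 3 stands highest in both replicates.

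Trl carried the strongest and most numerous sites. Trl encodes GAGA factor, which binds GA repeats and helps to open promoters in the embryo. The gene lies on the minus strand at 3L, 14747929 to 14761049, with 4 annotated start sites. Its 5 conservative summits fell within 4016 bp, at the 5' end of the gene, and were 758, 1286, 963 and 1009 bp apart. Sites are numbered from the 5' end, and site 1 was not in the conservative list. The sequences around the summits of sites 2, 3, 4 and 6 are shown because they include the 2 strongest peaks and lie outside untranslated regions; each runs from 50 bases before to 50 after the summit on the plus strand of dm6, read from the RefSeq copy of Release 6, at chr3L:14760157-14760257, chr3L:14759399-14759499, chr3L:14758113-14758213 and chr3L:14756141-14756241. Capitals mark GAGAG, the GA repeat core searched on both strands.
Trl site 2: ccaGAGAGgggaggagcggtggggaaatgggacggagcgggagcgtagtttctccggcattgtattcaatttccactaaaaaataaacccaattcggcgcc
Trl site 3: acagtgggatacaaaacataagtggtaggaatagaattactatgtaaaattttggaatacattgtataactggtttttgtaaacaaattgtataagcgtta
Trl site 4: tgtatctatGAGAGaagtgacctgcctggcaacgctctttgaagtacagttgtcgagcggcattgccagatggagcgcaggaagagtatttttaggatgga
Trl site 6: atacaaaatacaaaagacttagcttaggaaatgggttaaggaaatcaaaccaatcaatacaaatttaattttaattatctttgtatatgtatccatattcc

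Site 3 of Trl, in an intron 1487 bp from the nearest annotated start, had a signal of 1072 in replicate 1, 1143 in replicate 2 and 2220 in the conservative list, where it ranked 24 of 3718. Site 4, just upstream of a start that Trl shares with CG42507 and 384 and 827 bp upstream of the next starts of Trl, gave 537, 579 and 1135. Both sites were high in both replicates, and their replicate summits lay 3 and 7 bp apart. Site 5, in the 5' UTR 136 bp past a start, gave 241 and 148 in replicates 1 and 2. Site 6, in an intron, gave 214 and 172. Site 2, in an intron 842 bp past the first start, gave 133 and 112. These 3 sites were higher in replicate 1, whereas sites 3 and 4 were slightly higher in replicate 2; the signal scale may differ between lists, so no fold is drawn from this. Site 1, 1322 bp upstream of Trl and 343 bp past a start of Mgat4a, passed in replicate 2 alone, with a signal of 55.1.

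Few genes had as many sites. At least 5 separate conservative sites were found at 42 of 13968 protein-coding genes (0.301%), and at 5 of 1662 genes with windows of 10 to 20 kb (0.301%). The other 4 of these were CG14434, CG42258, HmgD and Pits. By its strongest conservative peak, Trl ranked 59 of 4279 protein-coding genes with one. The genes nearest to Trl in the log2 of the strongest signal of each replicate, among 3145 genes, were CG42507 and Tsen34, which share the peak of site 3 because their windows overlap that of Trl, and CG4004 on the X, at 1117 and 1102. This likeness rests on 2 values.

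**Figure D2:**
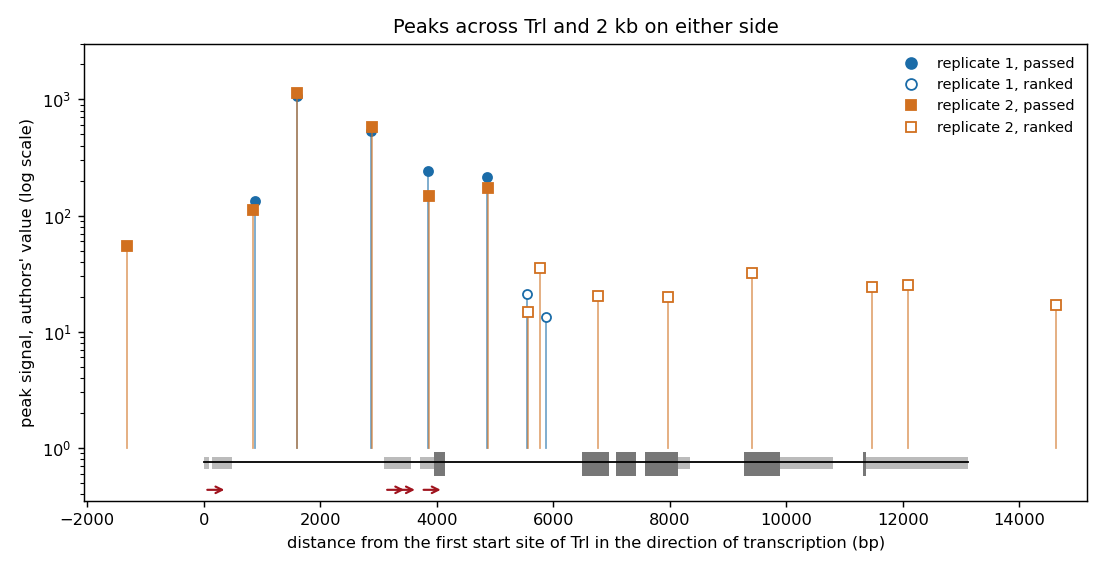
Peaks at Trl by distance from its first start site (bp), with their signal on a log scale. Filled points passed in a thresholded list, open points were ranked only, arrows mark start sites and boxes exons; the 5 conservative sites lie in the 5' part of the gene.

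M1BP, the Motif 1 binding protein of core promoters, had 1 site. The gene lies on the minus strand at 3R, 8729790 to 8731698. The peak at 8731928 to 8732114 had its summit 303 bp upstream of M1BP and 90 bp upstream of the divergent gene CG8202. Its signal was 165 in replicate 1, 150 in replicate 2 and 312 in the conservative list, rank 723. It was in the top 20.6% of the 3442 peaks of replicate 1 and in the top 27.2% of the 2624 of replicate 2. The same stretch at chr3R:8731951-8732051, plus strand of dm6, are shown because they lie between 2 start sites and hold none of the motifs searched, Motif 1 letters GGTCACACT included.
M1BP site 1: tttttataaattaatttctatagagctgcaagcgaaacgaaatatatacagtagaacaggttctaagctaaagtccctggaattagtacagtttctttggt

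Dref, which activates genes of DNA replication and growth, had 1 weaker site. The gene lies on the minus strand at 2L, 9964147 to 9967229. The summit was 52 bp past its start, in the 5' UTR, and 136 bp upstream of RpL13, a ribosomal protein gene. The signal was 90.3 in replicate 1, 76.6 in replicate 2 and 164 in the conservative list, rank 1616. The peak passed in all 4 thresholded lists.

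Clamp, which binds GA repeats and takes part in dosage compensation of the male X, had no peak in any of the 8 lists. The gene lies on the minus strand at 2L, 22165720 to 22169143. A gene window with no ranked summit in any of the 4 ranked lists was found for 1333 of 13968 protein-coding genes (9.54%), and Clamp was 1 of the 9 genes here. No ranked summit of any list fell between 22098964 and 22183275, a gap of 84.3 kb that wholly holds 9 protein-coding genes. In the conservative ranked list the gap was 116449 bp, against a median of 660 bp between neighbouring summits; 14 of 119421 gaps were at least as long, 4 of them on 2L. The window holds 0 unknown bases in the assembly. Whether reads could be placed there was not tested, so absence of a peak is not a measure of absence of binding.

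su(Hw) encodes the zinc finger protein that binds the insulator of the gypsy element. The gene lies on the minus strand at 3R, 14304455 to 14308589. A peak at 14308725 to 14309140 had its summit 344 bp upstream of su(Hw) and 156 bp upstream of Polr2I, which encodes a subunit of RNA polymerase II. The signal was 40.8 in replicate 1, rank 3262 of 3442, and 71.1 in replicate 2, rank 1820 of 2624. It passed in both replicates and in the other series-level list, at 107, but not in the conservative list, where the IDR of the matching ranked peak was 0.209. The replicate summits lay 73 bp apart, the widest of the sites with a ranked peak in both. The sequence at chr3R:14308883-14308983, plus strand of dm6, is shown for its base composition: 84.2% A+T, the highest of the 11 sites.
su(Hw) site 1: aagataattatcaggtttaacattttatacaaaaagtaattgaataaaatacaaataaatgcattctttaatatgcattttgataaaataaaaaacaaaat

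CTCF, ZIPIC and dwg had ranked peaks but none that passed. CTCF, the fly homologue of the vertebrate insulator protein, lies at 3L, 7353578 to 7356713, on the minus strand. Its strongest ranked peak in replicate 1 had a signal of 25.6, with the summit at 7356538 inside the gene. Its strongest in replicate 2 was another peak, with the summit at 7358034 upstream of CTCF, a signal of 40.1 and an IDR of 0.0521. Replicate 1 had 24.0 there, with the summit at 7358091. The IDR of the matching peak was 0.122 in the conservative ranked list and 0.0198 in the other series-level ranked list. ZIPIC, a partner of Cp190, lies at 3R, 30035240 to 30036870, on the minus strand, and its strongest ranked peaks were 19.1 in replicate 1, at 30035818, and 34.5 in replicate 2, at 30033919. For dwg, at X, 2727698 to 2730042, on the plus strand, they were 21.3 at 2729228 and 19.4 at 2728553. In all 3 genes the strongest peaks of the replicates were thus at different places. By the strongest peak of the conservative ranked list, CTCF (56.5) ranked 6622, ZIPIC (42.9) ranked 9310 and dwg (35.9) ranked 10486 of 11806 protein-coding genes with one. Those 3 genes are in the lower part of that order, and the median over genes was 61.5.

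**Figure D3:**
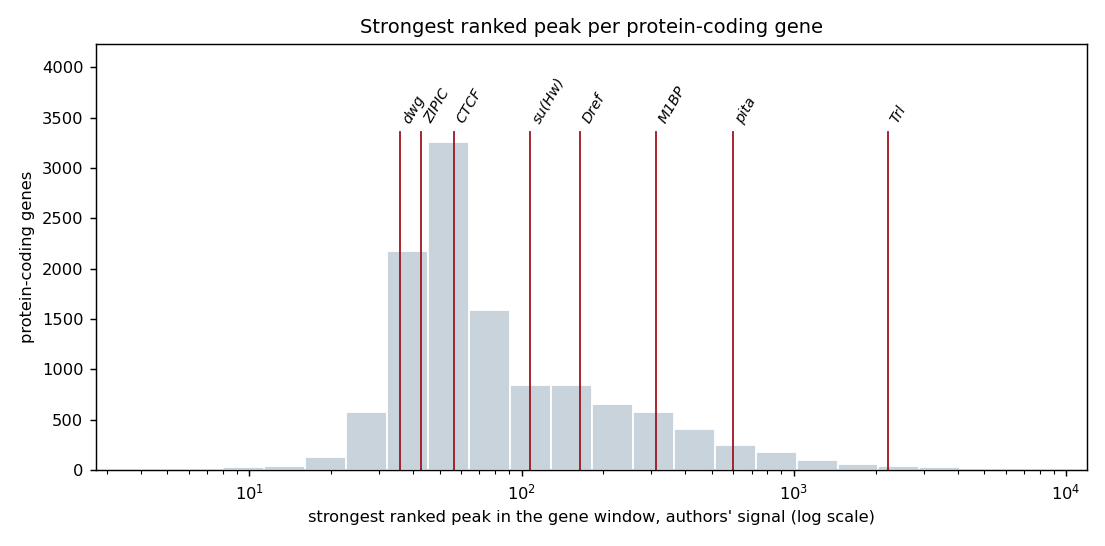
Strongest ranked signal per protein-coding gene in the conservative ranked list (log scale) with the members marked. Trl, at 2220, stands in the upper tail, and CTCF, ZIPIC and dwg lie below the median of 61.5.

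The gene pita encodes a zinc finger insulator protein that recruits Cp190, and it lies on the minus strand at 2R, 23548967 to 23554712. Its stronger site, at 23547934 to 23548240, was not at its own promoter: the summit lay 881 bp past the 3' end of pita, 65 bp past a start of wmd and 153 bp upstream of levy, which encodes a subunit of cytochrome c oxidase. The signal was 369 in replicate 1, 227 in replicate 2 and 598 in the conservative list, rank 266. The weaker site, in the 5' UTR 129 bp past the first start of pita, had a conservative signal of 112, rank 2445. It passed in replicate 2, at 60.3, but not in replicate 1, where its ranked peak had a signal of 48.0 and an IDR of 0.262.

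**Figure D4:**
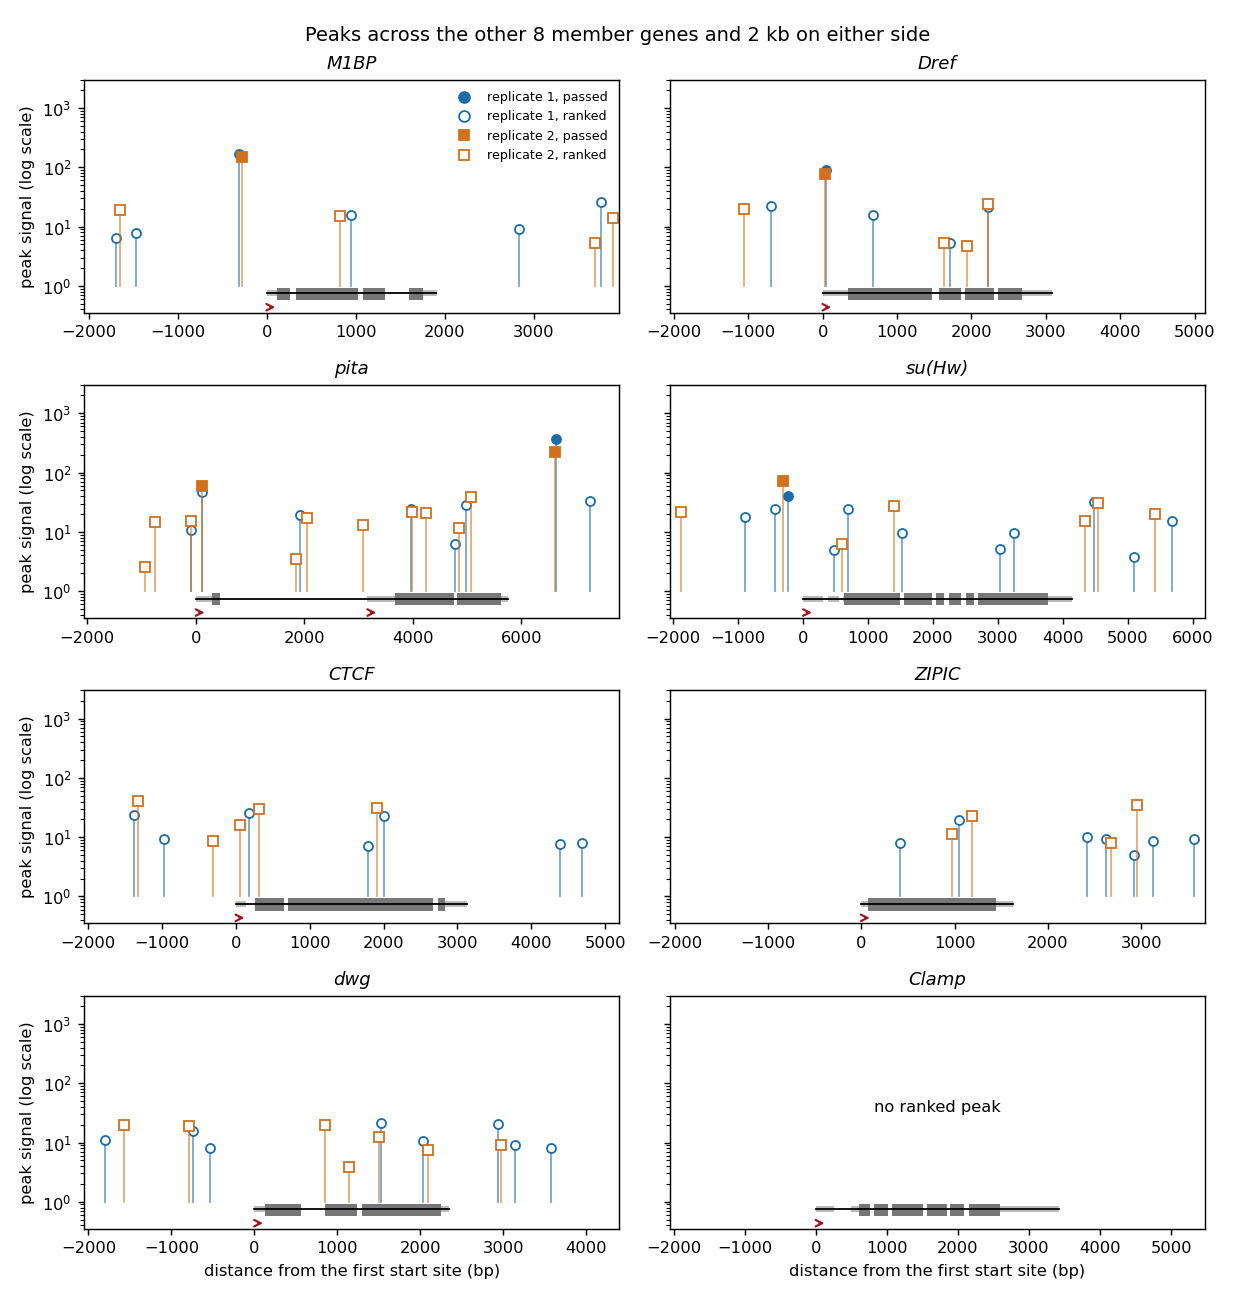
Peaks at the other genes by distance from the first start site (bp), with signal on a log scale. Filled points passed in a thresholded list and open points were ranked only; Clamp has no point.

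Known motifs of these proteins were searched on both strands within 50 bases of a summit: AGGTGGCG and AGATGGCG for CTCF, TGCATAC for su(Hw), CAGGGCTG for ZIPIC, GCTGCG and GCTGAG for dwg, GGTCACACT for M1BP, GAGAG for Clamp and Trl, TATCGATA for Dref and CGATA for BEAF-32, which overlaps the Dref letters; none was searched for pita. Of the 9 conservative sites, 4 held any of them, against 30.6% of all conservative windows. CGATA was found at the promoter site of pita, and GAGAG at Trl sites 2 and 4 and at Dref. GAGAG occurred in 9.75% of conservative windows and in 12.5% of ranked windows. A match describes letters only. The A+T content of the 9 sites ran from 46.5% to 75.2%, with a median of 68.3%, beside a median of 67.3% in all conservative windows and 51.5% in ranked windows.

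In promoters, taken as 250 bases before to 50 after a start site, GGTCACACT was found at su(Hw), ZIPIC and Clamp and in 5.22% of 19630 promoters, while the promoter of M1BP itself held none of the motifs. TATCGATA was found at CTCF and at 1 of 2 starts of pita (7.98% of promoters). GAGAG was found at 2 of 4 starts of Trl, at the other start of pita and at Clamp (33.1%). CGATA was found at 1 start each of CTCF, pita, ZIPIC, dwg, Clamp and Dref, and at none of the 4 starts of Trl (45.7%). The percentages are shares of promoters, not of genes, so a count of genes cannot be set against them. GCTGCG was found at CTCF and pita (15.6%), and AGATGGCG at CTCF (197 of 19630 promoters).

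Genes of the factors that act with these proteins were set beside them. The lists of these genes were chosen with earlier results of these data known. Of 14 cofactor genes, 7 had a conservative peak (30.6% of protein-coding genes did), 6 of them at a promoter (17.3% of protein-coding genes). The chromodomain protein gene Chro had a signal of 1927, with 1128 and 809 in replicates 1 and 2. The locus of mod(mdg4), which makes many isoforms by trans-splicing, had 1056, with its summit 56 bp from the start of pre-mod(mdg4)-E. Cp190, the shared cofactor, had 904, with 440 and 470 in the replicates. Its summit lay 148 bp upstream of its own start and 133 bp from the start of CG4338. Of 12 partner genes, 4 had a peak (33.3% of the list, beside 30.6% of protein-coding genes): gfzf at 296, psq at 145, lolal at 120 and XNP at 95.0. Of 24 other zinc finger genes, 10 had one (41.7%), among them phol at 1257, CG9215 itself at 903, pad at 324 and trem at 319; 5 of the 24 windows exceed 20 kb. Among genes with a conservative peak only, the median of the strongest signal was 552 for cofactor, 132 for partner and 180 for zinc finger genes. It was 455 for the 4 genes Trl, pita, M1BP and Dref and 192 for all protein-coding genes with a peak.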

How the data were processed

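The deposited data are 8 peak lists on dm6 from 2 ChIP-seq libraries. Fragments came from sonication, in a size range of 200 to 800, per the labels. No aligner or peak caller is named in the sources used here. The signal of each peak is the value deposited by the authors. The score, also deposited by the authors, is a whole number of at most 1000 computed from the IDR; thresholded peaks score at least 830. A deposited column of each ranked list gives −log10 IDR. There are no read counts, so depth is unknown and no interval is given.

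Summits were assigned to Ensembl release 115 genes (BDGP 6.54; transposable element genes left out) with Python 3.11, and figures drawn with matplotlib 3.10.9. The window and promoter limits were tried on simulated summits placed by the same limits. The outcome was fixed by that placement, so it does not check the counts. Sites of different lists were joined at an overlap of 1 bp. All 9 genes are named, with the genes nearest their conservative summits and up to 4 of the strongest genes of each list. No test was run: the single group allows none between conditions. The genes and lists were chosen with earlier results of these data known. Alternatives varied the flank, list, replicate, motif window and overlap.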

Additional observations from a re-analysis of the deposited data

How the results depend on the processing

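The number of the 9 genes with a conservative peak ran from 3 (gene body alone, where 10.2% of protein-coding genes had one) to 6 (flank of 5 kb, 42.7%, which adds CTCF and dwg), and it was 5 with replicate 1 alone (28.9%) or replicate 2 alone (25.1%). Of the 9 conservative sites, 8 also passed in each replicate, and 7 did so at an overlap of 50% of both peaks. The su(Hw) site passed in each replicate too, but it is not in the conservative list and is not counted. Motif letters were at 4 of 9 sites within 50 bases of the summit but at 0 in 51 bp in all, where 16.1% of conservative windows held any. With the gene body alone, 2 cofactor, 2 partner and 5 zinc finger genes had a peak (10.2% of protein-coding genes). Partner genes numbered 7 at 5 kb (42.7%) and 1 in the higher-signal part of the list (19.9%), and zinc finger genes 6 there. Leaving out each replicate gave 6 to 10 zinc finger genes. The cause was not tested. No paired analysis was possible because there is 1 group. Depth is unknown, and replicate numbers name the libraries only.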

Other observations

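The conservative list holds 3 peaks beyond the 2 kb limit but within 5 kb of any of the 9 genes. They have a signal of 120 at 3764 bp from CTCF, 84 bp from a start of Sec63, 14.9 at 3973 bp from CTCF, 125 bp from a start of Sec63, and 177 at 2267 bp from dwg, 119 bp from a start of ttm50.

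Short words enriched at the strongest summits were sought after the data were seen, by 14 searches that gave 10 different leading words. The first, a plain difference of shares over all conservative windows, gave TTAAAA for 6 bases, found at 2 of the 11 sites, then TTAAAAA for 7 bases, found at 1, and TTTAAAAA for 8 bases, found at 0. Weighting the ranked windows to the A+T content of the strongest ones and scoring the 400 strongest then gave CATTGCCA, which was seen to lie in Trl site 4. The later settings were chosen with that match in view. Without weighting, the ratio of shares gave TATATTAA at a minimum share of 5%, found at pita site 2, and TAATATTA at 3%, found at no site. With weighting it gave GCATTGCC, found at Trl site 4, for the 200 and 400 strongest windows at either minimum. For the 800 strongest it gave ATATTAAT at 5%, found at no site, and GCATTGCC at 3%. GCATTGCC was in 6.50% of the 200 strongest windows. The leading word thus depends on the search, 8 of the 14 pointed to Trl site 4, and none of this is evidence about binding at these genes.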
